A study of Mus musculus with 6 samples.

Results

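Mitochondrial ribosomal proteins were described in 6 thymic lymphomas of Ikaros-deficient mice, each read on 1 Affymetrix mouse array. The genes were chosen by name: every probe set with 1 gene symbol beginning Mrps or Mrpl and a number was taken, and each gene was represented by its probe set with the highest mean intensity. This gave 76 genes, of 18193 genes with a symbol of their own on the array, read by 156 probe sets. Of the 76, 29 carry small-subunit (Mrps) symbols and 47 carry large-subunit (Mrpl) symbols. All 76 representative probe sets passed the filter on dim signal, as did 151 of the 156.

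The tumours fall into 2 groups of 3. The first came from mice of genotype IkL/L Notch1f/f CD4-Cre+, aged 8 to 10 weeks, whose labels state that the promoter and exon 1 of Notch were deleted. The second came from mice that were Notch1+/+ at this locus, with the same IkL/L and CD4-Cre+ background, aged 18 to 20 weeks. All the mice thus shared the homozygous IkL allele of the Ikaros gene and the CD4-Cre transgene, which acts in developing thymocytes that use the Cd4 promoter. The share of tumour cells carrying the deletion is not given in the sources used here, and the cells were collected by disrupting the tumour, with no sort described. Genotype and age cannot be told apart in this design. Each array is 1 tumour of 1 mouse, and 3 arrays a group limit the precision of every value.

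Mitochondria hold their own ribosomes, which make the small set of respiratory chain proteins still encoded by mitochondrial DNA. Their RNA comes from mitochondrial DNA, while all their proteins are encoded by nuclear genes, made in the cytosol and imported. Part of these proteins descend from the bacterial ribosome and part were added during the evolution of mitochondria. In T cells, growth and division after activation are known to go with increased mitochondrial protein synthesis. Symbols follow early gel-based lists: structures of the mammalian ribosome place Mrps18a and Mrps30 in the large subunit, and Mrps36 is now assigned to the 2-oxoglutarate dehydrogenase complex.

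Both Notch1 probe sets gave signal in every tumour. The brighter had 3293.8, 3042.6 and 3418.5 in Notch1f/f tumours, against 3636.5, 2531.9 and 2838.2 in Notch1+/+ tumours, and the dimmer had 2026.2, 1346.2 and 2211.5, against 1792.5, 655.9 and 567.9. Neither passed the test, and since the place of these probes relative to the deletion is not given, they do not check the labels. The T cell label was checked against 9 measured markers of 10 listed, whose summed intensity was 18056 to 21971 in Notch1f/f tumours and 13495 to 17195 in Notch1+/+ tumours. No T cell marker was under 124 on any array, and no marker of any list was at 0. Macrophage markers, 8 of 8 measured, summed to 1431 to 2829 in Notch1f/f tumours and 246 to 893 in Notch1+/+ tumours. Of the 8, 7 had a higher mean in Notch1f/f tumours, and Adgre1 had a lower one (27.1, against 34.1). Fibroblast markers, 5 of 5 measured, summed to 51.5 to 115 in Notch1f/f tumours and 215 to 1263 in Notch1+/+ tumours. In Notch1+/+ tumour 1 that sum was mostly Col1a2 (190.1), while Col1a1 and Col3a1 had 1.6 and 4.5. Each of the 3 collagen genes had overlapping groups. B cell (5 of 6 measured), thymic epithelial (6 of 6), endothelial (4 of 4), neutrophil (3 of 4) and erythroid (2 of 4) markers had summed intensities of at most 296 on any array. In that order, 4, 3, 3, 0 and 2 of the measured markers had a higher mean in Notch1f/f tumours, so all 3 neutrophil markers had a lower one. The ratio of 3' to 5' signal of beta-actin, a sign of RNA integrity, was 1.35 to 1.64 in Notch1f/f tumours and 1.36 to 2.23 in Notch1+/+ tumours, where tumour 1 had the highest value. The 18S ribosomal RNA control probe set had 249.5 to 319 in Notch1f/f tumours and 64.8 to 125 in Notch1+/+ tumours. The part of these differences in the results below was not tested. In such bulk samples, fewer cells of a type and less RNA per cell cannot be told apart.

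No mitochondrial ribosomal protein gene passed the test between the genotypes. In limma (a linear model with moderated errors) over all 27022 probe sets tested, 0 of 76 genes reached an adjusted p of 0.05, and the smallest adjusted p was 0.295, while 0.0185% of all probe sets passed. At an unadjusted p under 0.05, 5 genes (6.58%) were lower in Notch1f/f tumours, where 7.6% of all probe sets were, and 1 gene (1.32%) was higher, where 5.94% were. With 1 probe set per gene, as for the 76, the shares over the 12042 genes tested were 6.21% lower and 6.97% higher, so the share on the lower side was close to that of all genes and the share on the higher side was below it. Differences were small on the representative probe sets. There the log2 differences ran from -0.81 to 0.45, with a middle range from -0.31 to 0.08, and 3 genes differed by more than 1.5-fold. Some other probe sets lay outside this range. For Mrps15, 1 with a mean of 385 gave -0.85 ± 0.29 without overlap (limma adjusted p = 0.297), where the representative gave -0.40 ± 0.26 with overlap. The 95% interval of the difference lay within 2-fold in both directions for 68 of the 76 genes. Its median half-width was 0.51 on the log2 scale, and 6 of the 76 intervals did not include 0, 5 below it and 1 above.

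As a set, the genes lay slightly towards lower values in the Notch1f/f tumours. The median log2 difference (of log2 of intensity plus 16) was -0.13, beside -0.04 over all probe sets tested and -0.01 over the 12042 genes tested. A difference below 0 was found for 49 of 76 genes (64.5%), against 55.0% of probe sets and 51.6% of all genes. In 13 genes (17.1%) all 3 Notch1f/f tumours lay below all 3 Notch1+/+ tumours, where 10.4% of probe sets and 9.14% of genes did, and in 4 genes (5.26%) they lay above, where 8.13% of probe sets and 9.21% of genes did. These counts depended on single tumours. Without Notch1+/+ tumour 1, 30 genes were lower with no overlap (17.0% of all genes tested were), 12 had an unadjusted p under 0.05 on the lower side (7.20% of all genes) and the median was -0.20. Without Notch1+/+ tumour 3, 13 were lower with no overlap (14.2% of all genes), 0 had such a p (4.76%) and the median was -0.04. With Notch1f/f tumour 2 left out, 21 were lower with no overlap (19.4% of all genes) and 11 had such a p (9.72%). Leaving out Notch1f/f tumour 3 gave 14 (13.3% of all genes) and 2 (4.03%), and leaving out Notch1+/+ tumour 2 gave 20 (13.4%) and 3 (3.50%). Leaving out Notch1f/f tumour 1 gave 13 (11.6%) and 0 (3.03%), with a median of -0.08. On the higher side, the genes with no overlap numbered 9 when Notch1+/+ tumour 3 was left out (13.7% of all genes), 8 for Notch1f/f tumour 2 (17.6%), 8 for Notch1+/+ tumour 1 (17.8%) and 6 for Notch1f/f tumour 1 (12.5%). With every array left out in turn, the higher-side count ranged from 4 to 9, where 12.4% to 17.8% of all genes did not overlap. Groups of 2 against 3 separate more readily than groups of 3 against 3, so these counts are read against the share of all genes in the same setting.

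**Figure D1:**
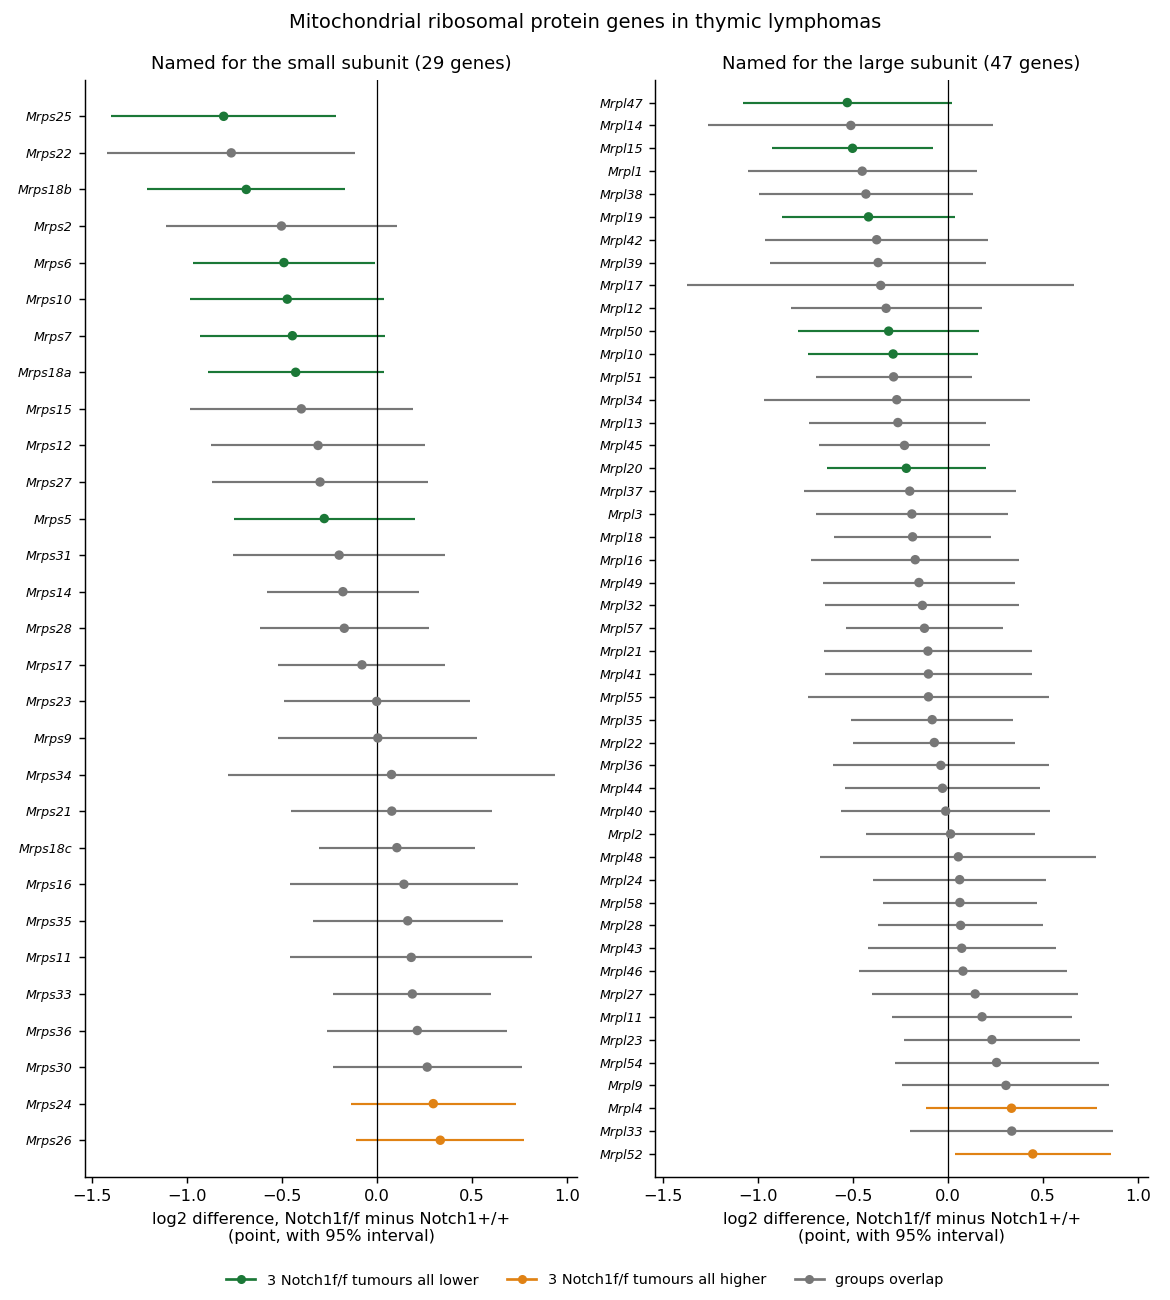
Log2 difference between Notch1f/f and Notch1+/+ tumours (point, horizontal axis) with its 95% interval (line) for each gene, 29 with small-subunit symbols on the left and 47 with large-subunit symbols on the right. Green marks the 13 genes with all 3 Notch1f/f tumours lower, orange the 4 with all higher; most intervals cross 0.

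The genes are spread over 17 chromosomes, with 11 on chromosome 11 and 8 on chromosome 17. Promoter windows of 300 bases from RefSeq (GRCm38.p6), reaching from 250 bases before to 50 after the start, were found for 67 of the 76. The motifs searched, on both strands, were CCGGAAG (ETS factors), GCGCANGCG (NRF1), AAGATGGCG (YY1), CACGTG (E-box), TGACGTCA (CRE) and GGGCGG (SP factors). At least 1 ETS motif was present for 25 of 67 genes (37.3%), against 9.93% of 27025 genes with a window. The NRF1 motif was present for 22.4%, against 7.03%, the YY1 motif for 11.9%, against 1.64%, and the SP motif for 50.7%, against 38.2%. The E-box, the core bound by Myc, was present for 7.46%, against 8.09%, and the CRE for 2.99%, against 2.03%. Another gene started on the opposite strand within 1000 bases upstream for 37.3% of the 67, against 12.3% of all. The windows were rich in CpG, with a median of 21 CpG each, against 7 over all genes, so base composition differs between these sets, and a motif match was counted whether or not it overlapped another motif. Among the 11 genes with a window that were lower without overlap, 2 held an ETS motif, 2 an NRF1 motif and 1 an E-box.

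These windows belong to the genes with the smallest p-values among Mrps and among Mrpl symbols, shown so that the letters behind the counts can be read. Mrps25 (chr6:92183974-92184273, minus strand) and Mrps18b (chr17:35916391-35916690, minus strand) were lower in all 3 Notch1f/f tumours, and Mrpl52 (chr14:54426659-54426958, plus strand) was higher. Each is printed along the strand of its gene, with motif matches in capitals. Mrpl15 is named only.
Mrps25: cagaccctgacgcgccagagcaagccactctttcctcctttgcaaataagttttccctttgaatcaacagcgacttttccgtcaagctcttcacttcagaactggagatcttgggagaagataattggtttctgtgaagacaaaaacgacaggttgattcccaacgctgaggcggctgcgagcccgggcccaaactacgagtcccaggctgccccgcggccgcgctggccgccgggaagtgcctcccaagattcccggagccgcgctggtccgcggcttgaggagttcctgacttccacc
Mrps18b: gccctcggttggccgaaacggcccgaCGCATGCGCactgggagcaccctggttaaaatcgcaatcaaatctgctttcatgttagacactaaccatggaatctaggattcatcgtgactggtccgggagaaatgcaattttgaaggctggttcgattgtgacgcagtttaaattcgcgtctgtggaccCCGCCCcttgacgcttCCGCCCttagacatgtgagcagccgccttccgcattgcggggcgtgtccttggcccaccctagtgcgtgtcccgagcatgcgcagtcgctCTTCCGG
Mrpl52: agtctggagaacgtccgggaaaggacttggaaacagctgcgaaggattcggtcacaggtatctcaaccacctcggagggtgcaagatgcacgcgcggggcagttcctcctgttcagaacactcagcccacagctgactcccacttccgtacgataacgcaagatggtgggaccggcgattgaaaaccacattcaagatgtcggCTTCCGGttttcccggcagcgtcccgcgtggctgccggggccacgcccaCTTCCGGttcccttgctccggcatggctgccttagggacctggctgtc
The Mrps25 window held none of the 6 motifs. That of Mrps18b held 1 NRF1, 2 SP and 1 ETS match, and that of Mrpl52 held 2 ETS matches, 1 of them 2 bases after the start. A match is a description of the letters and not of binding.

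Among the 29 genes with small-subunit symbols, Mrps18a, Mrps30 and Mrps36 included, 17 lay below 0 in log2 difference (median -0.17). Of the 29, 4 had an unadjusted p under 0.05, all on the lower side. Without overlap, 7 (24.1%), Mrps18a among them, were lower and 2 (6.90%) higher in the Notch1f/f tumours. Of all genes tested, 9.14% were lower and 9.21% higher. The 4 are 13.8% of the genes with small-subunit symbols, against 6.21% of all genes. Mrps25 encodes a small-subunit protein with no bacterial counterpart, in which human mutations cause mitochondrial disease. It had intensities of 126.8, 237.1 and 175.9 in Notch1f/f tumours 1 to 3, against 276.2, 309.5 and 374.9 in Notch1+/+ tumours 1 to 3. All the Notch1f/f values lay below the Notch1+/+ values, with Notch1f/f tumour 1 lowest. The log2 difference was -0.81 ± 0.26 (SE), a mean 1.75-fold lower level (limma adjusted p = 0.295). The other probe sets of Mrps25, both dimmer, gave -0.67 ± 0.31 and -0.52 ± 0.19.

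Mrps22, another protein found only in mitochondrial ribosomes and a human disease gene, had 203.0, 339.8 and 169.1 in Notch1f/f tumours, against 306.3, 454.0 and 453.7 in Notch1+/+ tumours. Here Notch1f/f tumour 2 exceeded Notch1+/+ tumour 1, so the groups overlapped, and the log2 difference was -0.77 ± 0.29 (adjusted p = 0.316). Mrps6, a homologue of a bacterial small-subunit protein, had 166.8, 181.1 and 149.5 in Notch1f/f tumours, against 213.5, 269.0 and 236.7 in Notch1+/+ tumours. Its groups did not overlap, at a log2 difference of -0.49 ± 0.21 (adjusted p = 0.362). Mrps10 and Mrps7, both homologues of proteins of the head of the bacterial small subunit, were lower without overlap as well, at -0.47 ± 0.23 and -0.45 ± 0.22 (adjusted p of 0.392 and 0.394). Mrps5 had 180.6 ± 21.9 in Notch1f/f tumours, against 221.7 ± 15.0 in Notch1+/+ tumours (SD, n = 3 each), at -0.28 ± 0.21 (limma adjusted p = 0.574).

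Mammals carry 3 nuclear homologues of 1 bacterial small-subunit protein, Mrps18a, Mrps18b and Mrps18c, and their values differed. Mrps18b had 174.4, 237.9 and 172.7 in Notch1f/f tumours, against 288.7, 292.9 and 389.7 in Notch1+/+ tumours (log2 difference -0.69 ± 0.23, limma adjusted p = 0.295). Mrps18a had 210.9, 211.6 and 217.4 in Notch1f/f tumours, against 250.6, 306.7 and 325.6 in Notch1+/+ tumours (-0.43 ± 0.21, limma adjusted p = 0.392). Both had lower values in all 3 Notch1f/f tumours, and the Mrps18a values of that group lay within 1.03-fold of each other. Mrps18c had 809.7, 687.0 and 941.7 in Notch1f/f tumours, against 750.9, 734.2 and 762.2 in Notch1+/+ tumours, and its groups overlapped (0.10 ± 0.18, 95% interval -0.31 to 0.51). The differences between the 3 homologues were not tested.

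**Figure D2:**
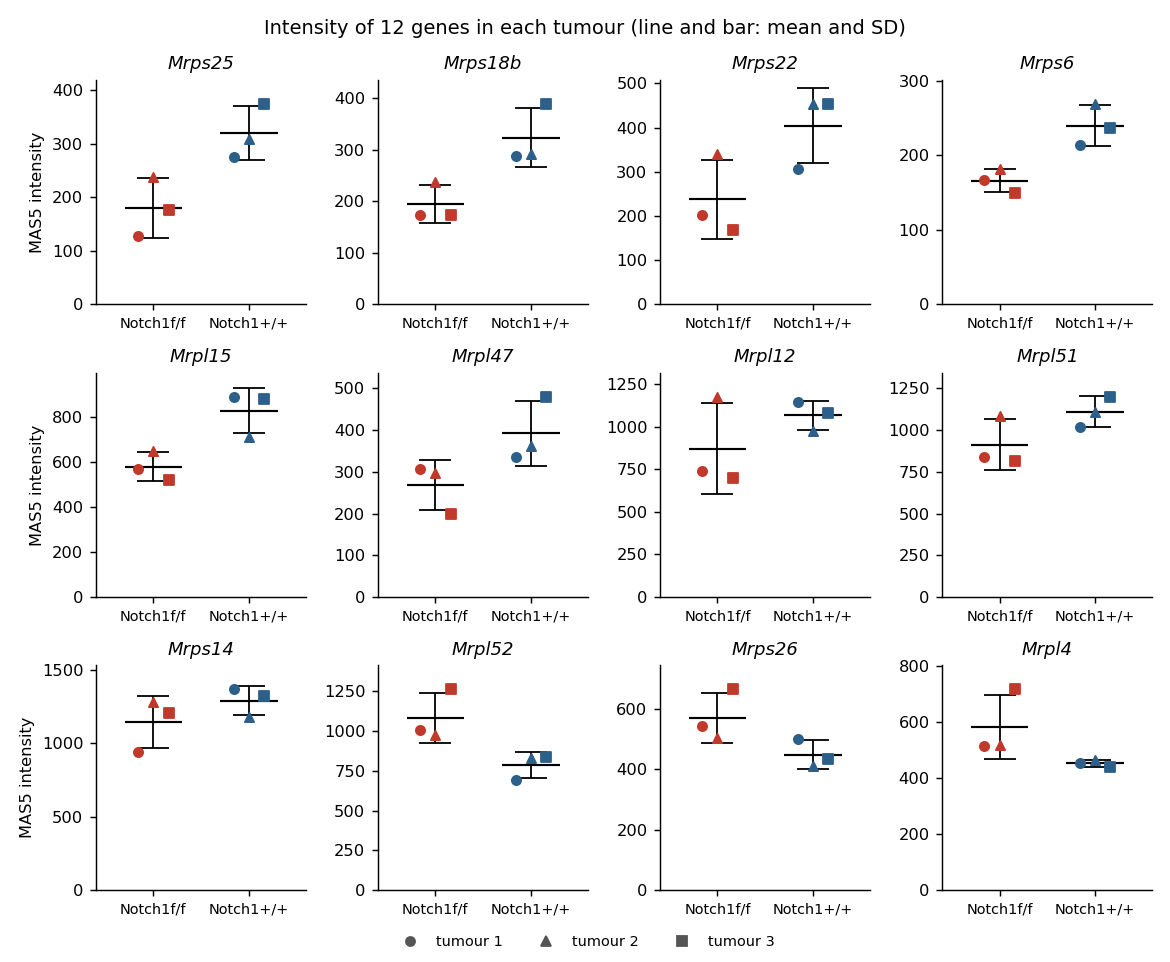
MAS5 intensity (vertical axis, from 0) of 12 genes in each tumour, with Notch1f/f on the left and Notch1+/+ on the right of each panel; symbols mark the tumour number, and the line and bar give the mean and SD of 3 tumours. The top row and Mrpl15, Mrpl47, Mrpl12, Mrpl51 and Mrps14 have lower Notch1f/f means, and Mrpl52, Mrps26 and Mrpl4 have higher ones. The groups overlap in Mrps22, Mrpl12, Mrpl51 and Mrps14.

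Of the 47 genes with large-subunit symbols, 32 lay below 0 in log2 difference (median -0.12). An unadjusted p under 0.05 was reached by 1 in each direction (2.13%), against 6.21% of all genes on the lower side and 6.97% on the higher. Mrpl15, a homologue of a bacterial large-subunit protein, was the lower one, with 570.3, 649.4 and 520.9 in Notch1f/f tumours, against 891.1, 712.8 and 882.6 in Notch1+/+ tumours. The groups did not overlap, and the log2 difference was -0.50 ± 0.19 (limma adjusted p = 0.316). Its 4 brightest probe sets, all of types whose probes can match more than 1 transcript, gave differences from -0.66 to -0.34. The next by intensity, with a mean of 117.4, went the other way (0.48 ± 0.36, with overlap), as did the brightest without a suffix, which reached 56.3 at most (0.29 ± 0.26). Mrpl47, whose bacterial homologue lies beside the exit of the peptide tunnel, had 268.2 ± 59.2 in Notch1f/f tumours, against 392.2 ± 77.3 in Notch1+/+ tumours (SD, n = 3 each), without overlap (-0.53 ± 0.24, limma adjusted p = 0.380). Mrpl19, Mrpl50, Mrpl10 and Mrpl20 were also lower without overlap. Their log2 differences ran from -0.42 for Mrpl19 to -0.22 for Mrpl20, with limma adjusted p from 0.396 to 0.619. In total, 6 of the 47 genes (12.8%) were lower and 2 (4.26%) higher without overlap, against 9.14% and 9.21% of all genes tested.

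The stalk of the large subunit, which recruits translation factors, is built on Mrpl10, Mrpl11 and Mrpl12. Mrpl12, which has also been reported to bind the mitochondrial RNA polymerase, had 737.4, 1176.1 and 699.3 in Notch1f/f tumours, against 1143.0, 977.4 and 1080.0 in Notch1+/+ tumours. Notch1f/f tumour 2 had the highest Mrpl12 value of all 6 tumours while the other 2 of its group had the lowest. The log2 difference was -0.32 ± 0.22 (adjusted p = 0.539). With each array left out in turn it ranged from -0.56, without Notch1f/f tumour 2, to -0.19. Mrpl10 had 254.1, 292.9 and 294.0 in Notch1f/f tumours, against 334.2, 315.9 and 388.9 in Notch1+/+ tumours (-0.29 ± 0.20, adjusted p = 0.541). Mrpl11 had 558.1, 482.1 and 672.1 in Notch1f/f tumours, against 567.1, 519.1 and 417.5 in Notch1+/+ tumours, and its groups overlapped (0.18 ± 0.21, adjusted p = 0.726). Its brightest probe set without a suffix, with a mean of 435, was higher without overlap (0.15 ± 0.19, limma adjusted p = 0.741). The dimmest Mrpl11 probe set gave -0.11 ± 0.23 with overlap. Mrps14 and Mrpl51, named for their high intensity, had 1144 ± 178 and 913 ± 151 in Notch1f/f tumours, against 1289 ± 98.1 and 1109 ± 92.1 in Notch1+/+ tumours, with overlap in both. A dimmer Mrps14 probe set, with a mean of 116, was lower without overlap (-0.40 ± 0.22, limma adjusted p = 0.454). The dimmest Mrps14 probe set gave 0.07 ± 0.25 with overlap.

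Higher values without overlap were found for Mrpl52, Mrps26, Mrpl4 and Mrps24. Mrpl52, a large-subunit protein without a bacterial counterpart, had 1006.2, 978.5 and 1262.6 in Notch1f/f tumours, against 694.6, 832.1 and 835.0 in Notch1+/+ tumours. Every Notch1f/f value lay above the Notch1+/+ values, with a log2 difference of 0.45 ± 0.18, or 1.36-fold (limma adjusted p = 0.344). The next probe sets by intensity gave 0.36 and 0.29, and the dimmest, under 40 on all arrays, gave -0.16. Mrpl4, a homologue of a bacterial protein that lines the peptide tunnel, had 514.7, 517.5 and 717.4 in Notch1f/f tumours, against 455.9, 464.1 and 440.4 in Notch1+/+ tumours (0.34 ± 0.20, adjusted p = 0.480). Mrps26 (0.33 ± 0.20) and Mrps24 (0.30 ± 0.19), the homologue of a bacterial protein near the messenger RNA entry, differed similarly, and in all 4 genes Notch1f/f tumour 3 was highest. Mrpl33 had a difference of the same size, 0.34 ± 0.24, with overlapping groups. The other Mrps24 probe set, with a mean of 455, gave a smaller difference of 0.15 ± 0.21, with overlap.

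By descent, 47 genes have a bacterial homologue, 28 are found only in mitochondrial ribosomes, and Mrps36 is neither. Among the genes with a bacterial homologue, 32 had a difference below 0 (median -0.17), and 11 (23.4%) were lower and 2 (4.26%) higher without overlap. Among those found only in mitochondria, 17 had a difference below 0 (median -0.06), and 2 (7.14%) were lower and 2 (7.14%) higher without overlap. Over all genes tested, 9.14% were lower and 9.21% higher without overlap. Among small-subunit symbols alone, the medians were -0.23 for 18 genes with a bacterial homologue and 0.04 for 10 without. Among large-subunit symbols they were -0.13 for 29 and -0.11 for 18. The difference between the classes was not tested.

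Tumours of the same genotype differed among themselves. Averaged over the 76 genes, the level on the log2 scale was 8.47, 8.63 and 8.61 in Notch1f/f tumours 1 to 3, against 8.56, 8.68 and 8.85 in Notch1+/+ tumours 1 to 3. The groups overlapped, since Notch1+/+ tumour 1 lay below Notch1f/f tumours 2 and 3. Notch1+/+ tumour 3 was the highest of the 6 tumours for 33 genes (43.4%), where it was highest for 16.7% of all probe sets tested. Notch1+/+ tumour 1 was the lowest for 25 genes (32.9%, against 16.2%), Notch1f/f tumour 1 for 19 (against 17.4% of all probe sets) and Notch1f/f tumour 3 for 16 (21.1%, against 27.3%). Notch1f/f tumour 1 was the highest for none of the 76, where it was highest for 17.4% of all probe sets.

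Within the Notch1+/+ group, 34 genes had both their lowest value in tumour 1 and their highest in tumour 3. Mrpl17, a homologue of a bacterial large-subunit protein, had 229.1, 329.0 and 175.9 in Notch1f/f tumours, against 141.5, 332.0 and 600.8 in Notch1+/+ tumours, where it spanned 4.25-fold. Mrps34, a mitochondria-specific small-subunit protein and human disease gene, had 529.9, 661.3 and 795.2 in Notch1f/f tumours, against 309.1, 770.7 and 985.8 in Notch1+/+ tumours. Both are named because of these values, outside the rule for named genes. The median fold between the highest and lowest tumour of a group was 1.35 in Notch1f/f and 1.37 in Notch1+/+. Notch1+/+ tumour 1 also had the highest beta-actin 3' to 5' ratio, 2.23, and the lowest summed macrophage markers, 246. The part of either in these levels was not tested.

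**Figure D3:**
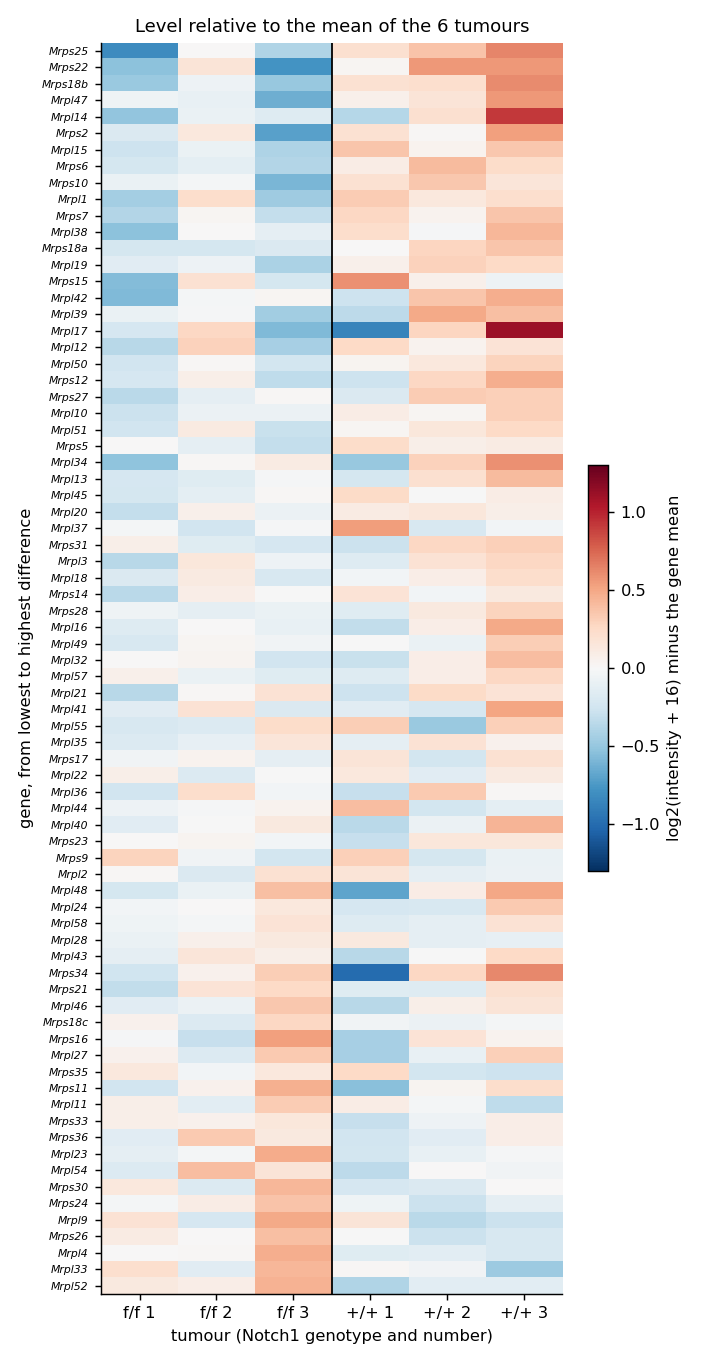
Level of each of the 76 genes in each tumour relative to its mean over the 6 tumours (colour, log2 scale, red higher and blue lower), with genes from the lowest to the highest difference and Notch1f/f tumours left of Notch1+/+ tumours. The column of Notch1+/+ tumour 3 is mostly red and that of Notch1f/f tumour 1 mostly blue, while Notch1+/+ tumour 1 is mixed.

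Different probe sets of a gene often disagreed in direction. Of 40 genes with more than 1 tested probe set, 21 had all differences of 1 sign and 19 did not. Some of the 19 differed among brighter probe sets. Mrpl9 gave 0.31 ± 0.24 on its representative probe set and -0.42 ± 0.20, without overlap, on another with a mean of 221. In others the contrary probe set was dim, as for Mrpl1, Mrpl17 and Mrpl47, with means of 10.6, 10.1 and 7.88. Mrpl54 was an example: its brighter probe set gave 0.26 ± 0.24 and its dimmer one, under 15 on all arrays, -0.55 ± 0.20 (limma adjusted p of 0.653 and 0.306). For Mrps5, 1 dim probe set gave -0.58 ± 0.25, at an unadjusted p of 0.0432, and another gave 0.02 ± 0.27. Of the 76 representative probe sets, 44 have no suffix, 23 are of a type that can match several transcripts of 1 gene, and 9 are of types that can match other genes. The median difference was -0.15 for the 44 and -0.10 for the 32 others.

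Genes that serve the mitochondrial ribosome had list medians below 0 as well. These lists were drawn up by function and hold no gene of the 76, and no gene in them passed limma over all probe sets. Beside their counts, 51.6% of all 12042 genes tested lay below 0, and 6.21% were lower and 6.97% higher at an unadjusted p under 0.05. Each of the 4 measured subunits with other symbols, Dap3, Ptcd3, Chchd1 and Gadd45gip1, had a difference below 0 (median -0.36), with 0 at an unadjusted p under 0.05. Of 10 translation factors, 8 lay below 0 (median -0.34), and 2 were lower at an unadjusted p under 0.05. The elongation factor Gfm1 had 141.0, 191.5 and 122.5 in Notch1f/f tumours, against 229.0, 260.1 and 215.7 in Notch1+/+ tumours (-0.60 ± 0.24, adjusted p = 0.332). Its groups did not overlap, nor did those of Tsfm. Tsfm, the exchange factor of the elongation factor Tufm, had 84.1, 143.4 and 61.7 in Notch1f/f tumours, against 153.3, 159.0 and 158.9 in Notch1+/+ tumours (-0.69 ± 0.29, adjusted p = 0.353).

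Of 23 assembly factors, 17 lay below 0 (median -0.11), with 4 (17.4%) lower at an unadjusted p under 0.05. They were Mrm3, which methylates the large ribosomal RNA, at -0.96 ± 0.31, Fastkd2, an RNA-binding assembly factor, at -0.65 ± 0.23, and the GTPases Noa1 and Mtg1, at -0.57 ± 0.25 and -0.58 ± 0.26. Of 16 mitochondrial tRNA synthetases, 14 lay below 0 (median -0.22), and 3 reached such a p. Nars2, which charges the asparagine tRNA, had 56.9, 64.9 and 75.7 in Notch1f/f tumours, against 119.7, 166.0 and 123.7 in Notch1+/+ tumours (-0.89 ± 0.24, adjusted p = 0.258). Rars2 and Tars2 had differences of -0.68 ± 0.26 and -0.47 ± 0.20, also without overlap. Of 16 genes listed under mitochondrial transcription and RNA handling, 10 lay below 0 (median -0.21). Mgme1, Lrpprc and Pnpt1 reached an unadjusted p under 0.05 (-0.79, -0.67 and -0.53). Mgme1 is an enzyme of mitochondrial DNA maintenance that the list included, not one of transcription or RNA handling. Lrpprc, which stabilises mitochondrial messenger RNAs, had 211.5, 327.0 and 220.4 in Notch1f/f tumours, against 494.3, 375.3 and 357.8 in Notch1+/+ tumours. The lists held 0 genes that were higher without overlap, where 9.21% of all genes were, and 0 higher at an unadjusted p under 0.05. Over all alternatives run, the list medians stayed below 0, for example from -0.56 to -0.24 for the translation factors and from -0.19 to -0.07 for the assembly factors. The median nearest to 0 was that of transcription and RNA handling, from -0.24 to -0.06. Genes below 0 numbered 13 to 19 for the assembly factors. For transcription and RNA handling they numbered 8 (of 14 genes with a probe set without suffix) to 12.

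**Figure D4:**
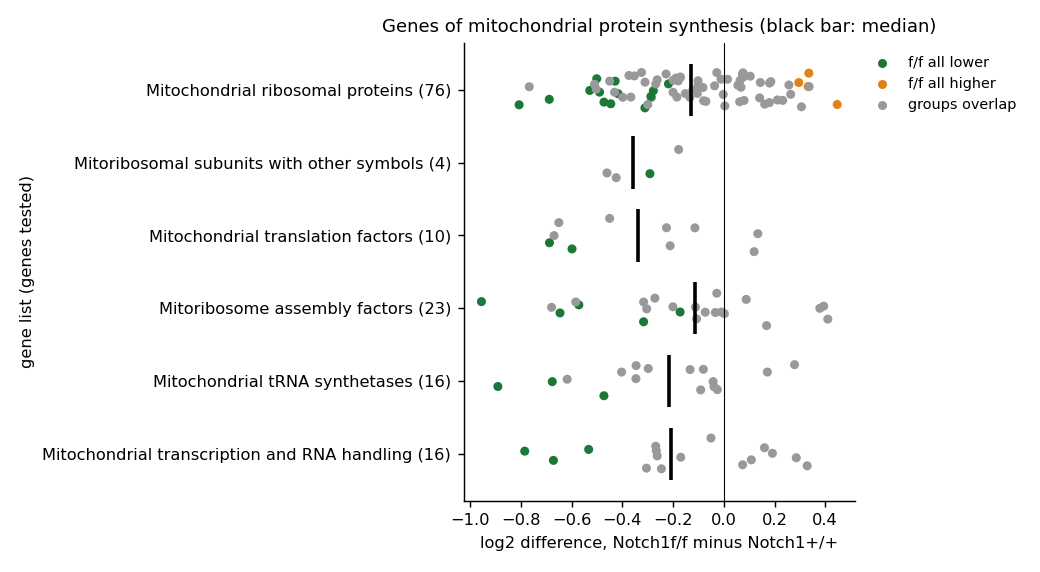
Log2 difference between Notch1f/f and Notch1+/+ tumours (horizontal axis) of each gene (point) in the 76 mitochondrial ribosomal protein genes and 5 lists of genes serving mitochondrial protein synthesis, with the median as a black bar. All the medians lie below 0, and the orange points, genes higher in all 3 Notch1f/f tumours, occur only in the top row.

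Cytosolic ribosomal protein genes and nuclear genes of oxidative phosphorylation, chosen by symbol after these results were seen, lay on the other side of 0. Of 43 tested cytosolic genes, 7 had a difference below 0 (median 0.10), and of 72 oxidative phosphorylation genes, 19 had (median 0.14), against 49 of the 76 mitochondrial ribosomal protein genes. Both medians depended on Notch1f/f tumour 3, whose mean log2 level of the cytosolic genes was 12.02, against 11.59 to 11.68 in the other tumours of both genotypes. Without it, 20 of 42 cytosolic genes and 36 of 72 oxidative phosphorylation genes lay below 0, and both medians were near 0 (0.01 and 0.0049), while 57 of the 76 did (median -0.15). The cytosolic median was also 0.01 with quantile normalisation, and 0.02 with probe sets without suffix. The difference between the families was not tested.

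**Figure D5:**
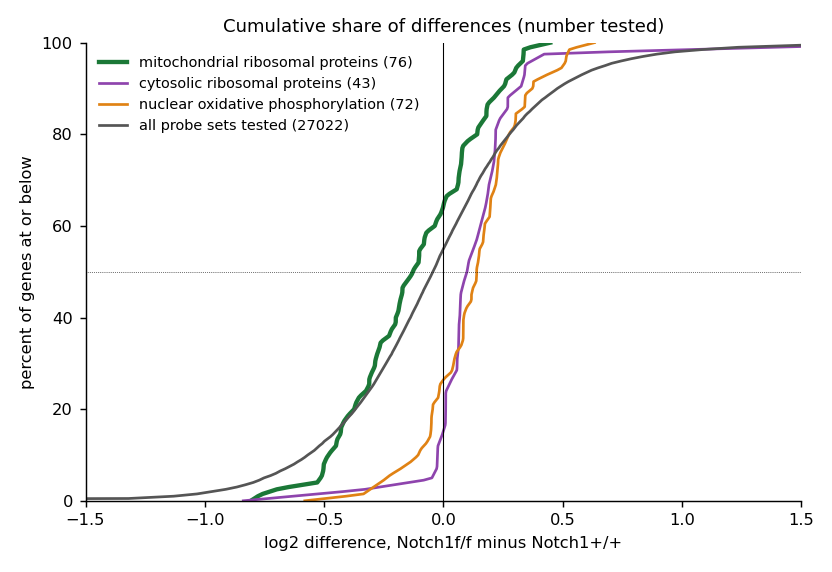
Cumulative percent of genes (vertical axis) at or below each log2 difference between Notch1f/f and Notch1+/+ tumours (horizontal axis) for 76 mitochondrial ribosomal, 43 cytosolic ribosomal and 72 oxidative phosphorylation genes and all 27022 probe sets tested. The green curve crosses 50 percent at -0.13, left of the curve of all probe sets at -0.04, and both other families cross it right of 0.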

How the data were processed

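The labels' protocols describe tumour cells collected from dissected lymphomas by mechanical disruption, RNA purified on columns with DNase, and biotin-labelled cRNA. Values deposited by the authors are intensity values per probe set on a linear scale, from MAS5 per the submitters' processing notes, with no version given. The trimmed mean (2% at each end) was 100 on every array.

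Of 45101 probe sets, 64 were controls, and 34945 had 1 symbol in the platform annotation (34741 matched RefSeq GRCm38.p6, and 0 symbols changed). Another 4 probe sets pair an Mrps or Mrpl symbol with a second gene and were not named. Values were analysed as log2(intensity + 16), which understates differences of dim genes. Probe sets with a mean under the 40th percentile (4.56) were left out, and 27022 were tested with lmFit and eBayes (trend) in limma 3.58.1 under R 4.3.3, two-sided, with Benjamini-Hochberg adjustment over all of them. The fit was tested on simulated data. No covariate was used, since the labels give no batch or pairing. Figures used matplotlib 3.10.9 under Python 3.11.15.

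The members, lists and tests were chosen with earlier results of these data known. The rule for named genes takes, per direction, up to 16 members without overlap by p, the 4 with the highest intensity, the 4 largest and 4 smallest differences, members whose probe sets disagree, and up to 4 genes per list. Alternatives changed the pseudocount (1 or 64), the filter (none, or the 60th percentile), the scaling (quantile or median), the variance model (no trend, or array weights) and the probe set standing for a gene, or left out each array in turn. Cytosolic ribosomal and oxidative phosphorylation genes were chosen by symbol pattern after the files were examined. The number of arrays limits the precision.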

Additional observations from a re-analysis of the deposited data

How the results depend on the processing

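Under all 17 alternatives, 0 of the 76 genes passed an adjusted p of 0.05 in limma, the count below 0 stayed between 40 (of 62 genes with a probe set without suffix) and 57, and the median difference stayed below 0. With an array left out the median ranged from -0.20 to -0.04, and under the other alternatives from -0.19 to -0.08. The counts at an unadjusted p under 0.05 moved most. On the lower side there were 8 with array weights (9.80% of all genes were), 8 with probe sets averaged per gene (6.51%) and 3 of 62 with probe sets without suffix (6.51%), and from 0 to 12 with an array left out. On the higher side there were 0 with eBayes without trend, 0 with probe sets averaged per gene, 0 with probe sets without suffix, and from 0 to 1 with an array left out, where 6.59%, 5.64%, 6.56% and 4.33% to 8.91% of all genes were. With an array left out, genes without overlap numbered 13 to 30 on the lower side and 4 to 9 on the higher side, where 11.6% to 19.4% and 12.4% to 17.8% of all genes did not overlap. Of 387 values of the 23 named genes, 385 kept their sign and 2 did not: Mrpl54 had -0.15 with its probe sets averaged, and Mrpl15 had 0.29 on its brightest probe set without suffix. These are other probe sets by construction. No paired analysis was possible because the labels give the tumours no shared numbers. With 3 arrays a group, the median half-width of the intervals was 0.51 on the log2 scale.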
